A study of Mus musculus with 6 samples.

Results

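Of the 17954 H3K4me3 peaks called on chromosomes 1 to 19 in Sox13lo thymocytes, 2855 (15.9%) had no H3K4me3 peak of Sox13hi thymocytes within 5 kb. These 2855 regions are described here and are called Sox13lo-only peaks. They were chosen from the H3K4me3 lists themselves, and they were ranked by the authors' peak score. The 715 peaks with a score of 16.25 or more form the upper 25% by score, ties included, and are called the high-scoring group. The other 2140 are called the rest. The number of members, their scores and their distance from Sox13hi peaks therefore describe the choice and test nothing. The SOX13 and H3K27me3 lists come from libraries that the choice did not use. By the same rule in the other direction, 4851 of 19924 Sox13hi H3K4me3 peaks (24.3%) had no Sox13lo peak within 5 kb, and the upper 25% of them, 1249 peaks, began at a score of 12.75.

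All libraries came from C57BL/6 mice that lacked TCRβ and carried 1 Sox13 allele with a knock-in of the fluorescent reporter ECFP, so every cell profiled shared this genotype and had 1 reporter allele. γδ thymocytes positive for CD24, a marker of immature thymocytes, were sorted into a fraction with high reporter (Sox13hi) and a fraction with low or no reporter (Sox13lo). The labels do not say how many animals were pooled, and the reporter stood in for SOX13 protein in the sort. Chromatin was immunoprecipitated for SOX13 from 1000000 Sox13hi cells, and for H3K4me3 and H3K27me3 from 250000 cells of each fraction. SOX13 was not mapped in Sox13lo cells, so each SOX13 overlap below places Sox13hi binding on a region where H3K4me3 was called in Sox13lo.

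Trimethylation of histone H3 at lysine 4 (H3K4me3) marks the start sites of active and poised genes, where it is laid down by complexes of the SET1 and MLL families, and weaker deposits occur at enhancers. Trimethylation at lysine 27 (H3K27me3) is laid down by Polycomb repressive complex 2 and marks repressed genes. Promoters that carry both marks are known as bivalent. SOX13 is an HMG-box transcription factor of the SoxD group that is needed for the development of a subset of γδ T cells.

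There was 1 library per mark and population, so no difference could be set against the spread between replicates, and no p-value is given. Intervals on shares are 95% exact (Clopper-Pearson) binomial intervals, and intervals on differences were built from them. They cover counting error only and treat peaks as independent. Read depth was not analysed here. A peak called in 1 list and not in the other may differ in signal, in depth or in threshold, and these cannot be told apart from the lists. The 5 lists held 7395 to 20444 peaks, and the Sox13lo H3K27me3 list was the shortest, against 14842 peaks in Sox13hi. All coordinates are mm9.

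Sox13lo-only peaks were low and narrow for their list. Their scores ran from 1 to 96.75 with a median of 10.75 (quartiles 7.5 and 16.25), against a median of 75.5 for the 15099 Sox13lo peaks that had a Sox13hi peak within 5 kb. Only 12 of the 2855 reached the median of the whole Sox13lo list (56.75), and 0 lay in its upper 10%. The share of list peaks that were Sox13lo-only fell along the score scale. It was 77.5% at scores under 5, 49.5% from 10 to 15, 19.8% from 20 to 30 and 1.21% (59 of 4871) from 40 to 100. The high-scoring group had a median score of 22.75 and a median percentile of 28.4 within the list. The highest-scoring Sox13lo-only peak stood at percentile 67.4.

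Median width was 300 bp over all Sox13lo-only peaks, 450 bp in the high-scoring group (quartiles 400 and 550 bp) and 250 bp in the rest (quartiles 200 and 350 bp). Sox13lo peaks with a Sox13hi neighbour had a median width of 950 bp. Sox13hi peaks with no Sox13lo peak within 5 kb were also low and narrow. Their median width was 350 bp and their median percentile 15.7 by score in their own list. Widths of 1000 bp or more occurred in 16 Sox13lo-only peaks, and all 16 were in the high-scoring group. The rest reached 800 bp at most. Together the 2855 regions covered 0.935 Mb, of which 0.358 Mb lay in the high-scoring group. Score and width come from the same peak calls, so their relation is no separate finding.

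**Figure D1:**
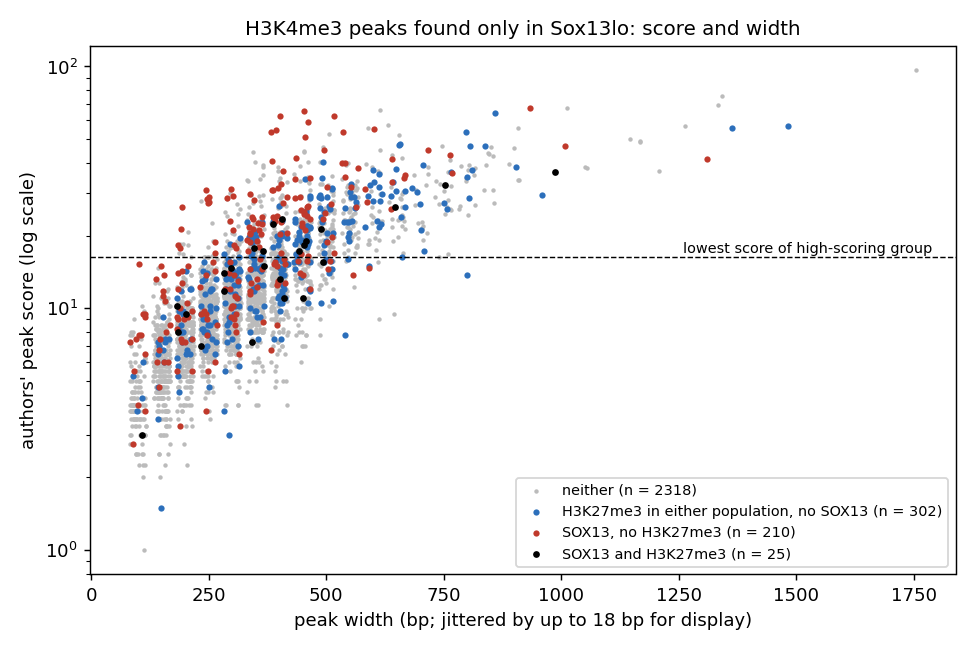
Authors' peak score (log scale) against peak width (bp) for each of the 2855 Sox13lo-only H3K4me3 peaks, coloured by overlap with SOX13 or H3K27me3 peaks. Above the dashed line the 104 peaks with SOX13 and no H3K27me3 have a median width of 400 bp against 450 bp for peaks with neither, and below it both medians are 250 bp; the line marks the high-scoring group at 16.25.

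The threshold values show no step in the data at the limits used. The last Sox13lo-only peaks inside the high-scoring group were 21 peaks at a score of 16.25, among them chr19:25210651-25210999 and chr19:45649651-45649999, each 350 bp wide. Just outside stood 23 peaks at 16, led by chr1:121354001-121354449 (450 bp) and chr2:117059651-117060049 (400 bp). At the distance limit, 82 Sox13lo-only peaks lay 5 to 6 kb from a Sox13hi peak with a median score of 12.5, and 85 excluded peaks lay at 4 to 5 kb with a median score of 11.75. The 3 members closest to the limit were chr7:90809301-90809799 (score 17) and chr8:24516701-24516849 (score 5.75), both at exactly 5 kb, and chr2:165812301-165812799 (score 15.75) at 5.05 kb. The 3 excluded peaks closest to it, all at 4.95 kb, were chr6:83013351-83013649 (score 12.5), chr6:91788101-91788499 (score 12) and chr11:22406801-22407099 (score 7).

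The 20 highest-scoring Sox13lo-only peaks were spread over 12 chromosomes and were of more than one form. A first group was broad and free of SOX13 and H3K27me3 peaks. It held the 3 highest: chr4:62295901-62297649 (1750 bp, score 96.75), chr7:4817051-4818399 (1350 bp, score 75.25) and chr3:101090401-101091749 (1350 bp, score 69). It went on with chr11:74385251-74386249 (1000 bp, score 67.25), where a SOX13 peak lay 2.4 kb away, chr2:28554751-28555999 (1250 bp, score 56.5) and chr11:69694201-69695099 (900 bp, score 55.75). Of the 20, 9 overlapped none of the SOX13 and H3K27me3 lists, these 6 among them. The other 3 were narrower: chr3:153367901-153368499 (600 bp, score 66.25), chr8:121928601-121929249 (650 bp, score 57.5) and chr2:152727051-152727649 (600 bp, score 55.5).

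A second group of 7 overlapped a SOX13 peak. The highest was chr3:153729101-153730049, 950 bp wide with a score of 67.5, and its SOX13 peak had a score of 8.75, at or above 67.2% of the SOX13 list. The other 6 were 400 to 600 bp wide and carried SOX13 peaks from the top of that list. At chr13:31307151-31307649 (500 bp, score 62.5) the SOX13 score was 33.25, and at chr4:152254601-152254999 (400 bp, score 62.5) it was 25.25, against a median SOX13 score of 7.5. The SOX13 score was 22.5 at chr17:67461401-67461849 (450 bp, score 65.5), 19.5 at chr15:30252701-30253149 (450 bp, score 59) and 20 at chr4:130740451-130740849 (400 bp, score 54.5). The last of the 6, a 600 bp peak on chromosome 18 with a score of 55, had a SOX13 score of 21.5. All 4 of the top 20 peaks that were under 500 bp wide were in this group. The nearest higher-scoring Sox13lo peak lay 121.05 kb from the first of the 7 and 240.9 to 401.95 kb from the other 6.

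The remaining group of 4 overlapped H3K27me3, and none of the 20 carried SOX13 and H3K27me3 together. The 1500 bp peak at chr3:80604201-80605699 (score 56.5) had H3K27me3 in both populations, with scores of 37.5 in the Sox13lo list and 7.25 in the Sox13hi list. It was also the most isolated of the 20, 1170.5 kb from the nearest higher-scoring peak. At chr1:95132201-95133049 (850 bp, score 64) and chr1:93241551-93242349 (800 bp, score 53.75) H3K27me3 was called only in Sox13lo, with scores of 34.5 and 84. In the first of these a Sox13hi H3K27me3 peak lay 1.75 kb away. At chr19:4332751-4334099 (1350 bp, score 55.5) H3K27me3 was called only in Sox13hi, with a score of 5.

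**Figure D2:**
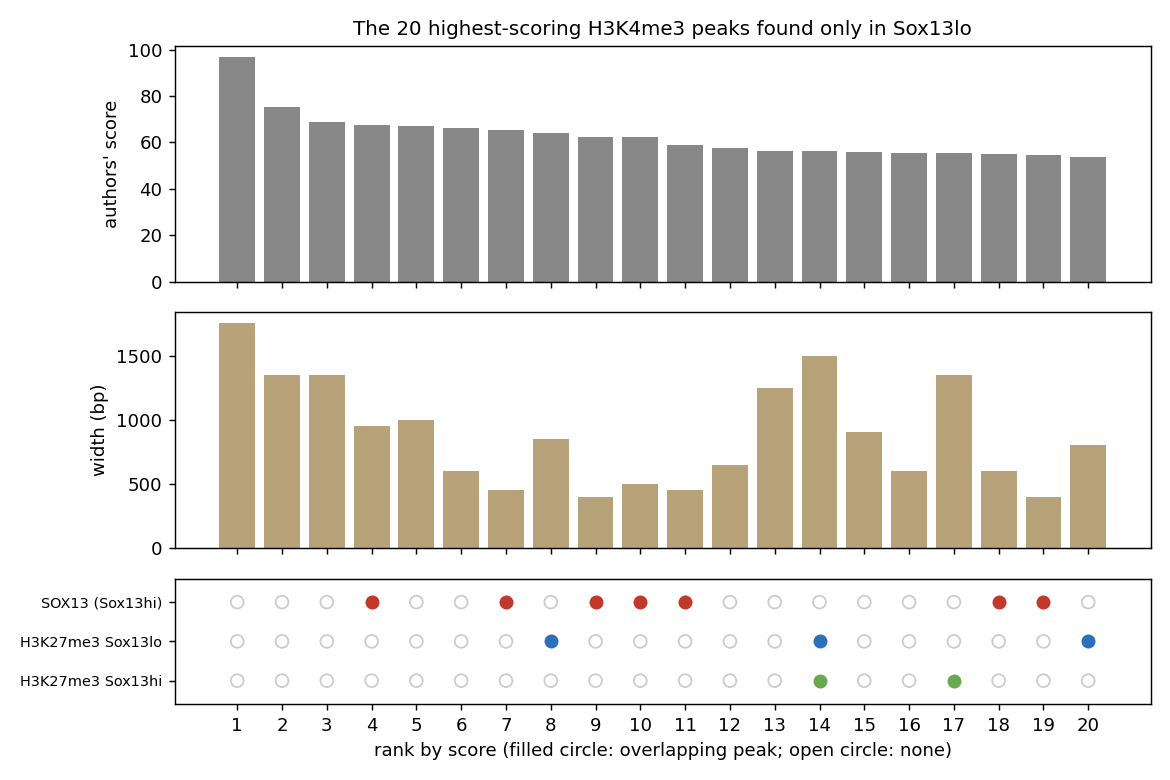
Authors' score, width (bp) and overlaps of the 20 highest-scoring Sox13lo-only H3K4me3 peaks, ordered by rank; filled circles mark an overlapping peak of SOX13 (Sox13hi) or of H3K27me3 in either population. The 7 peaks with SOX13 and the 4 with H3K27me3 are different peaks, and 9 have neither.

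SOX13 peaks overlapped 235 of the 2855 Sox13lo-only peaks, 8.23% (interval 7.25 to 9.30%), against 9.18% of all Sox13lo H3K4me3 peaks. The share rose with score. It was 16.1% in the high-scoring group (115 peaks, 13.5 to 19%) and 5.61% in the rest (120 peaks, 4.67 to 6.67%), a difference of 10.5 percentage points (7.65 to 13.5). It was 2.45% in the lowest 10% of scores and 21.3% in the highest 10%. Over all scores, Sox13lo-only peaks did not differ from the other Sox13lo peaks (9.36%) beyond counting error, with a difference of -1.13 points (-2.22 to 0.0367).

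At equal score the comparison changed. From 15 to 20, SOX13 lay on 11.3% of Sox13lo-only peaks and 7.36% of the others (difference 3.91 points, 0.157 to 8.14). From 20 to 30 the shares were 16.6% and 10.6% (difference 6.03, 1.72 to 10.9), and from 30 to 40 they were 18.8% and 8.94% (difference 9.81, 2.80 to 18.4). From 40 to 100, 19 of 59 Sox13lo-only peaks had SOX13, 32.2% (20.6 to 45.6%), against 7.42% of the others (difference 24.8, 13.2 to 38.2). In that last class the Sox13lo-only peaks sat lower, at a median score of 47.25 against 68. Below 15 the intervals of the differences included 0. Among Sox13hi-only peaks, SOX13 lay on 17.1% of their high-scoring group, and the difference, Sox13lo-only minus Sox13hi-only, was -1.05 points (-4.47 to 2.50). Split by width, it was 2.21 points (-2.87 to 7.51) up to 450 bp and -4.77 points (-9.18 to -0.0526) from 500 bp, where the shares were 10.2% and 15%. In the rest the difference was 1.22 points (0.0391 to 2.46), higher in Sox13lo-only.

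**Figure D3:**
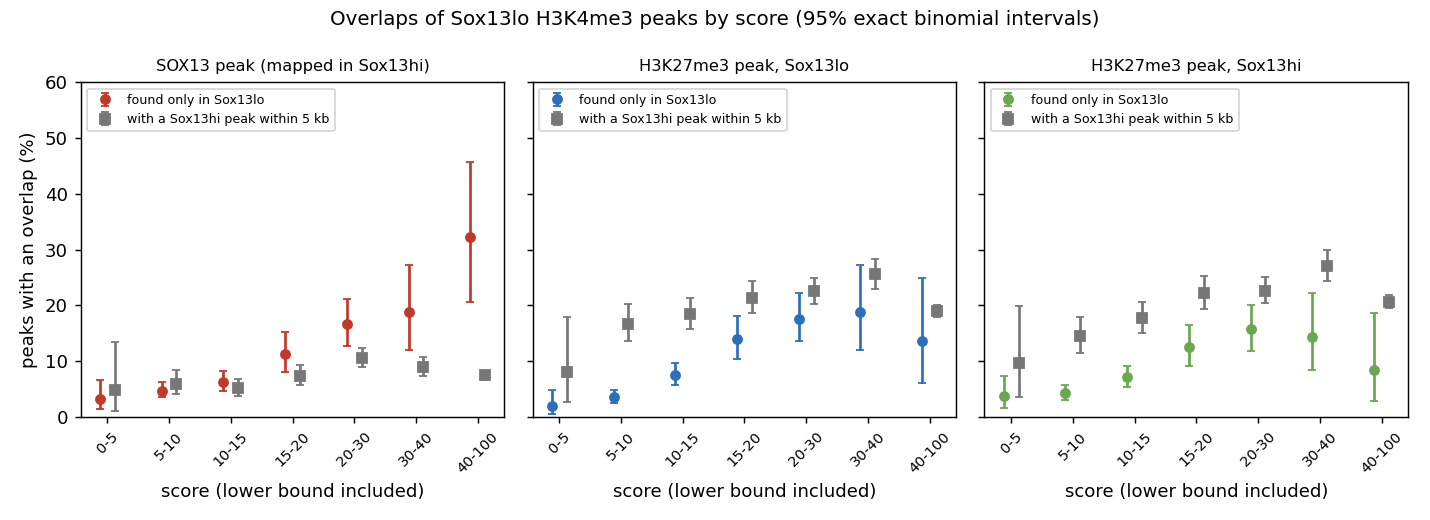
Share of Sox13lo H3K4me3 peaks (%) that overlap SOX13, Sox13lo H3K27me3 or Sox13hi H3K27me3, by score class, for Sox13lo-only peaks (circles) and peaks with a Sox13hi peak within 5 kb (squares), with 95% exact binomial intervals. SOX13 reaches 32.2% of Sox13lo-only peaks at scores of 40 to 100 against 7.42% of the others, and H3K27me3 lies lower on Sox13lo-only peaks in most classes.

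The SOX13 peaks found there were high in their own list. Those on the high-scoring group, 119 peaks, had a median score of 14.25 (12.25 to 15.5), and 62 of them (52.1%) belonged to the top 10% of the SOX13 list. Those on the rest had a median of 9.5 (8 to 10.25), with 23.3% in the top 10%, and those on the other Sox13lo peaks had a median of 10.5 with 31.5%. All Sox13lo-only peaks held 239 SOX13 peaks, 1.77% of the 13494 on these chromosomes. The median offset between the centre of the H3K4me3 peak and that of the SOX13 peak was 75 bp in the high-scoring group and in the rest. For all members of the high-scoring group, overlapping or not, the nearest SOX13 peak lay at a median of 26.8 kb, against 44.95 kb in the rest.

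H3K27me3 of Sox13lo cells overlapped 231 Sox13lo-only peaks (8.09%), against 14.2% of all Sox13lo H3K4me3 peaks. The high-scoring group had 117 (16.4%) and the rest 114 (5.33%), a difference of 11 points (8.20 to 14.1). H3K27me3 of Sox13hi cells, where no H3K4me3 peak was called nearby, overlapped 220 (7.71%), against 15.3% of the list. Here the high-scoring group had 93 (13.0%) and the rest 127 (5.93%), a difference of 7.07 points (4.46 to 9.93). Over all scores, both shares were below those of the other Sox13lo peaks (15.4% and 16.7%), with differences of -7.26 points (-8.40 to -6.06) for Sox13lo H3K27me3 and -8.97 points (-10.1 to -7.77) for Sox13hi H3K27me3. Both were above those of Sox13hi-only peaks, by 2.44 points (1.25 to 3.68) and 1.75 points (0.565 to 2.97), but in the high-scoring groups these differences were 2.43 (-0.906 to 5.90) and 0.197 (-2.90 to 3.43). Among Sox13hi-only peaks the high-scoring group exceeded the rest by 11.2 points (9.19 to 13.3) and 9.23 points (7.31 to 11.3). At equal score, Sox13lo H3K27me3 lay lower on Sox13lo-only than on the other Sox13lo peaks, but from 20 up the intervals included 0. From 20 to 30 this difference was -4.93 points (-9.60 to 0.212). For Sox13hi H3K27me3 the interval was below 0 in each class from 5 up.

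H3K27me3 of either population lay on 327 Sox13lo-only peaks (11.5%), and 124 of these (37.9%, 32.6 to 43.4%) had it in both populations. Among the other Sox13lo peaks with H3K27me3, 62.6% (60.8 to 64.3%) had it in both. The share was 36.3% (31.7 to 41.2%) among Sox13hi-only peaks and 47.9% (39.4 to 56.4%) in the Sox13lo-only high-scoring group. The H3K27me3 peaks on the high-scoring group had a median score of 38 in the Sox13lo list, whose median was 23.25, against 47.25 for those on the other Sox13lo peaks. The highest-scoring Sox13lo-only peaks with H3K27me3 in both populations, after the 1500 bp peak on chromosome 3, were chr11:45869451-45870099 (score 47.25), chr3:37247451-37248249 (score 47) and chr2:18721501-18722349 (score 46.75). Their H3K27me3 scores were 31.5, 56.75 and 37.25 in Sox13lo and 57.25, 57 and 80 in Sox13hi. At chr5:72978351-72978999 (score 47.75), which lay 6.1 kb from the nearest Sox13hi H3K4me3 peak, H3K27me3 overlapped in Sox13lo alone, with a score of 70.5. A Sox13hi H3K27me3 peak lay 1.85 kb away.

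SOX13 and H3K27me3 mostly lay on different peaks of the high-scoring group. H3K27me3 of either population was on 11 of the 115 high-scoring peaks with SOX13 (9.57%, 4.87 to 16.5%) and on 131 of the 600 without it (21.8%, 18.6 to 25.4%), a difference of -12.3 points (-18.1 to -4.64). The difference was 3.20 points (-2.10 to 10.4) in the rest and 2.54 points (0.305 to 4.89) among the other Sox13lo peaks. All 3 lists met on 8 Sox13lo-only peaks (0.280%), against 1.43% of the other Sox13lo peaks and 0.186% of Sox13hi-only peaks. None of the 3 was found on 2318 (81.2%), which was 65.6% of the high-scoring group, 86.4% of the rest and 73.0% of the other Sox13lo peaks.

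The peaks with SOX13 differed in form from those with H3K27me3. In the high-scoring group the 104 peaks with SOX13 and no H3K27me3 had a median width of 400 bp and a median score of 26.75, and 71.2% were 450 bp wide or less. The 131 with H3K27me3 and no SOX13 had a median width of 500 bp and a median score of 23, and 42.0% were that narrow. The former also lay farther from a higher-scoring Sox13lo peak, at a median of 74.8 kb (52.8 to 106.55), against 36.5 kb (23.35 to 53.5) for the latter and 39.4 kb (31.15 to 47.95) for the 469 peaks with neither. Peaks of higher score have fewer higher neighbours, and the part of the score in this distance was not tested.

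Over all Sox13lo-only peaks the SOX13 share was higher in wider peaks, at 6.63% up to 250 bp, 8.98% at 300 to 450 bp, 10.1% at 500 to 950 bp and 18.8% (3 of 16) from 1000 bp. In the rest it was 5.81%, 5.10% and 12.5% (5 of 40) in the 3 classes that held peaks. Within the high-scoring group, which was chosen by score, the order differed. There SOX13 lay on 11 of 28 peaks of 250 bp or less (39.3%), 70 of 355 at 300 to 450 bp (19.7%), 31 of 316 at 500 to 950 bp (9.81%) and 3 of 16 at 1000 bp or more. Up to 450 bp the share was 21.1% (17.2 to 25.6%) and from 500 bp it was 10.2% (7.20 to 14%), a difference of 10.9 points (5.42 to 16.3). The other Sox13lo peaks of the same score range gave 17.6% and 6.82%, a difference of 10.7 points (8.31 to 13.4), so this split was not particular to Sox13lo-only peaks. Within width, the excess of Sox13lo-only over the other peaks was 3.58 points (-1.15 to 8.60) up to 450 bp and 3.42 points (0.309 to 7.24) from 500 bp. Median scores were 20.25 and 20.5 up to 450 bp, but 26.9 and 55 from 500 bp, where the other peaks scored higher. Score and width were not held together. This split was made after the overlaps were seen.

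In the high-scoring group the widths ran the other way for H3K27me3 of either population. It lay on 0 of the 28 high-scoring peaks of 250 bp or less, which allows up to 12.3% by the exact interval. Of all 1147 Sox13lo-only peaks of that width, 45 (3.92%) had Sox13lo H3K27me3 and 47 (4.10%) Sox13hi H3K27me3. In the high-scoring group H3K27me3 of either population lay on 16.2% of peaks up to 450 bp and on 24.1% from 500 bp. This was a difference of -7.91 points (-14 to -1.83). Among the other Sox13lo peaks of that score range the narrower ones carried it more often, 31.0% against 25.3% (difference 5.63, 2.53 to 8.83). Narrow high-scoring Sox13lo-only peaks differed from the others of their width by -14.8 points (-19.5 to -9.78), while those from 500 bp differed by -1.25 points (-5.88 to 3.83). Narrow high-scoring Sox13lo-only peaks had H3K27me3 more often than narrow high-scoring Sox13hi-only ones, by 6.57 points (2.25 to 11.2). From 500 bp the shares were 24.1% and 29.5%, a difference of -5.40 points (-11.4 to 0.803). The Sox13hi-only share was also lower in narrow peaks, 9.62% up to 450 bp, so this direction was not particular to Sox13lo-only peaks.

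**Figure D4:**
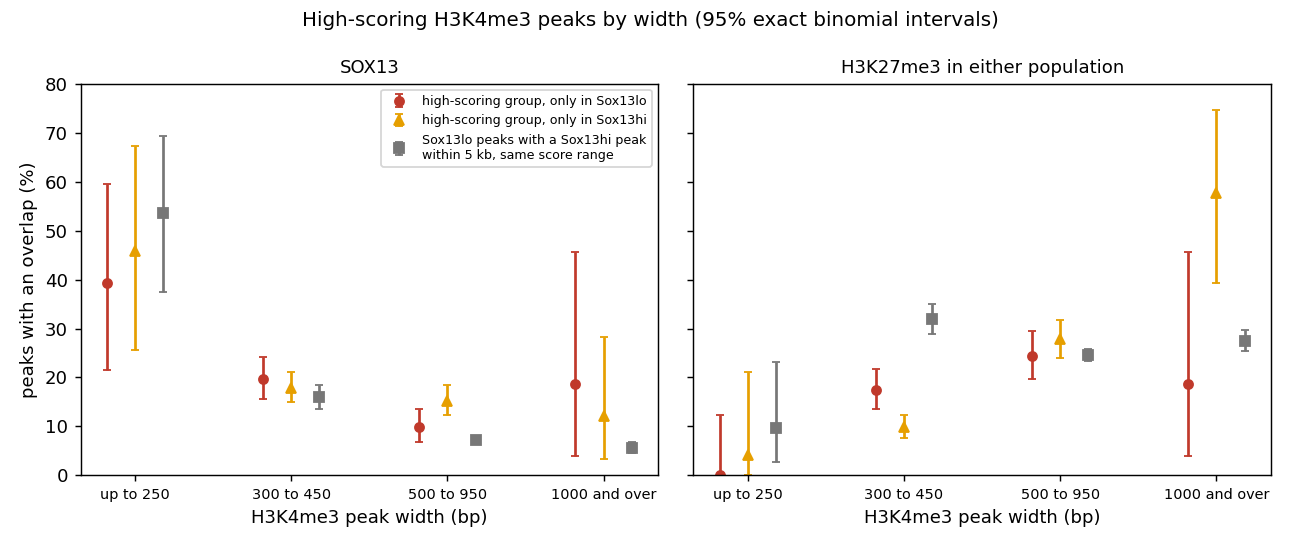
Share of high-scoring H3K4me3 peaks (%) that overlap SOX13 or H3K27me3 of either population, by peak width (bp), for the high-scoring groups of Sox13lo-only and Sox13hi-only peaks and for Sox13lo peaks with a Sox13hi neighbour in the same score range, with 95% exact binomial intervals. SOX13 falls with width in the Sox13lo-only high-scoring group from 39.3% to 9.81% across the 3 narrower classes, and at 300 to 450 bp the squares for H3K27me3 lie above the circles.

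Over all scores, Sox13lo-only peaks were no farther from larger H3K4me3 peaks of their own list than other peaks were. The median distance to the nearest higher-scoring Sox13lo peak was 45.75 kb (42.35 to 49), against 50.55 kb (48.85 to 52.2) for the other Sox13lo peaks and 49.65 kb for all. At equal score Sox13lo-only peaks lay farther from such a peak, in every score class. The medians were 51.25 kb against 3.25 kb at scores of 5 to 10 and 37.65 against 15.75 kb from 20 to 30. From 40 to 100 they were 74.8 and 40.2 kb. The nearest higher-scoring Sox13lo peak lay at 43.2 kb (36.75 to 50.6) in the high-scoring group and 46.5 kb (42.9 to 50.9) in the rest, and these intervals overlapped. It was under 5 kb away for 95 peaks (3.33%), with 15 in the high-scoring group (2.10%) and 80 in the rest (3.74%). Such a neighbour stood under 5 kb from 16.2% of the other Sox13lo peaks. The choice itself thins such neighbours, because most higher-scoring Sox13lo peaks also have a Sox13hi peak. A higher-scoring peak was under 10 kb away for 13.9% and under 50 kb for 52.2%. Among the other Sox13lo peaks these shares were 22.0% and 49.6%. No higher-scoring peak lay within 500 kb of 210 Sox13lo-only peaks (7.36%). When larger was taken as wider, the medians were 43.45 kb and 48.6 kb.

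The larger neighbour was no Sox13lo-only peak in 82.7% of cases (93.7% in the high-scoring group and 79.0% in the rest), and 84.1% of all Sox13lo peaks were none. It overlapped a Sox13hi H3K4me3 peak in 79.5% of cases (92.4% in the high-scoring group and 75.2% in the rest), against 78.0% of all Sox13lo peaks. Over all members both shares were near those of the list. The neighbour always scores above the member, and the list was not matched for score. The larger neighbour had a median score of 65 and a median width of 850 bp, and next to the high-scoring group these were 87.75 and 1050 bp. The nearest Sox13hi H3K4me3 peak lay at a median of 26.3 kb (23.55 to 29.9) from the high-scoring group and 38.8 kb (35.75 to 41.95) from the rest, and 407 members lay at 5 to 10 kb.

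**Figure D5:**
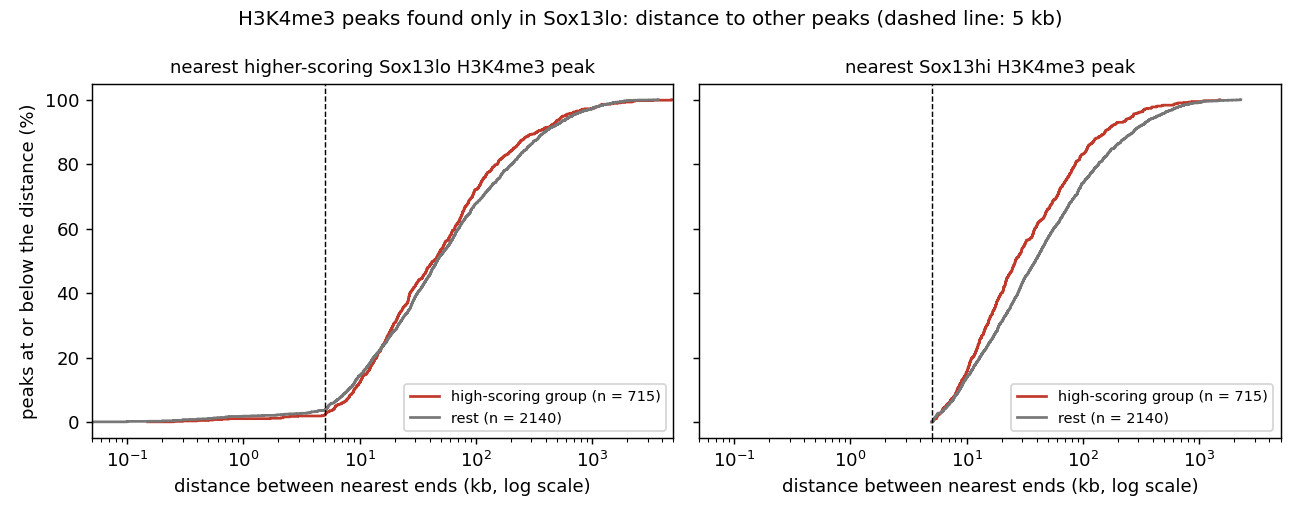
Cumulative share of Sox13lo-only H3K4me3 peaks (%) against the distance (kb, log scale) to the nearest higher-scoring Sox13lo peak and to the nearest Sox13hi peak, for the high-scoring group (715) and the rest (2140), with a dashed line at 5 kb. The high-scoring group and the rest nearly coincide in the first panel (medians 43.2 and 46.5 kb) and part in the second (26.3 and 38.8 kb).

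Sox13lo-only peaks were found on every autosome. Their share of the Sox13lo peaks ran from 10.7% on chromosome 11 (9.14 to 12.3%) to 20.7% on chromosome 12 and 21.2% on chromosome 14 (18.1 to 24.6%). The high-scoring group made up 16.3% of the members on chromosome 16 and 35.6% on chromosome 19 (26.4 to 45.6%). Most stood alone: 2613 had no other Sox13lo-only peak within a gap of 10 kb, 115 pairs did, and 4 runs held 3. The first 3 of these runs by position were chr4:41767651-41782549, chr5:124634301-124637649 and chr13:24706301-24709649, and none of the 4 held SOX13. The run on chromosome 5 had scores of 14, 34 and 48.75. Of all members, 242 (8.48%) lay within 10 kb of another and 97 within 1 kb.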

How the data were processed

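ChIP-seq peak lists of 5 libraries were used, 1 per mark and population. For each library the authors deposited peak positions with a score, and the lists were not pooled. The score is the authors' own value, always a multiple of 0.25 to 2 decimals, and its definition is not given in the sources used here. It was used only to rank or select within a list. Positions are on mm9, which the submitters' processing notes name. Not given in the sources used here were also the aligner, peak caller, thresholds and control, and read depth is unknown. The input library was not analysed here.

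Every start lay on a grid of 50 bp and every end 1 bp before a grid point, and widths count both ends. Starts are printed counting from 1. Distances are the bases between nearest ends, and an overlap is at least 1 bp, so that touching peaks did not count. Overlaps were computed with pandas 2.3.3, NumPy 2.4.6 and SciPy 1.17.1 under Python 3.11.15, tested on simulated data, and gave the same counts as bedtools 2.31.1. Newcombe-type intervals are given for differences of shares, and order-statistic intervals for medians.

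The members, lists and alternatives were chosen with earlier results of these data known. The regions named were the 20 highest-scoring members, the 5 highest with SOX13 and with each H3K27me3 list, the 5 widest, the 3 runs with the most members and those nearest each limit. Genes, sequences and motifs were not analysed here, because the annotation at hand is of another build.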

Additional observations from a re-analysis of the deposited data

How the results depend on the processing

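Over 10 alternative settings 117 values were recomputed, of which 91 stayed within the interval of the reported value (for the number of members within 1.5 times, for differences with an interval on the same side of 0), 26 left it and 0 reversed. In all 27 recomputed differences of overlap share, high-scoring group minus rest, the interval stayed above 0 (SOX13 8.50 to 14.4 points, Sox13lo H3K27me3 9.50 to 12, Sox13hi H3K27me3 6.70 to 10.3). With any Sox13lo peak that overlapped no Sox13hi peak counted, the share of members was 22.0%, Sox13lo H3K27me3 lay on 7.65% of the rest, Sox13hi H3K27me3 on 16.2% of the high-scoring group and 7.88% of the rest, the nearest higher-scoring peak at 24.7 and 28.15 kb, and the rest had a median width of 300 bp. With a 10 kb limit the share was 13.6% and the distances 53.5 and 61.1 kb. With Sox13hi trimmed to equal length the share was 16.5%, and with peaks within 1 kb merged it was 16.9%. With overlap widened to 1 kb, SOX13 was on 19.3% of the high-scoring group and 7.29% of the rest, Sox13lo H3K27me3 on 7.15% of the rest, and Sox13hi H3K27me3 on 18.9% and 8.60%. With the upper 50% of the SOX13 and H3K27me3 lists alone, SOX13 was on 3.55% of the rest, Sox13lo H3K27me3 on 11.9% and 2.38%, and Sox13hi H3K27me3 on 3.93% of the rest. With the upper 10% by score in place of the upper 25%, SOX13 was on 21.2% and 6.78%, Sox13lo H3K27me3 on 6.93% of the rest, and widths were 550 and 300 bp. What moved each of these values was not tested. The splits by score class, by width and by sex chromosome were added after the data were seen. No paired analysis was possible because only 1 library was made per mark and population, which also left no replicate to leave out. Unknown depth limits every statement that a peak was not called.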

Other observations

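By the same rule, 60 of 423 Sox13lo H3K4me3 peaks on the X chromosome had no Sox13hi peak within 5 kb (14.2%, 95% exact interval 11 to 17.9%). Their median score was 12.25 and their highest 46.5. SOX13 overlapped 1 of the 60, Sox13lo H3K27me3 5 and Sox13hi H3K27me3 2, and these overlaps were not counted for all X peaks. In the other direction, 76 of 431 Sox13hi X peaks qualified (17.6%, 14.2 to 21.6%). SOX13 overlapped 6 of these, Sox13lo H3K27me3 0 and Sox13hi H3K27me3 3. On the Y chromosome 21 of 94 Sox13lo peaks qualified (22.3%, 14.4 to 32.1%), with scores of 4.5 at most. In the other direction 22 of 89 Sox13hi Y peaks did (24.7%, 16.2 to 35.0%). These counts were added after the data were seen.

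Counted from the SOX13 list, 90 of the 239 peaks on Sox13lo-only H3K4me3 peaks (37.7%) were in its top 10% by score, 62 of 119 in the high-scoring group and 28 of 120 in the rest. The list was split into 10 parts by SOX13 score, which held 1130 to 1888 peaks because tied scores stayed together. The share that met high-scoring Sox13lo-only peaks (the upper 25%) was 4.57% (62 of 1357, 3.52 to 5.82%) at SOX13 scores of 14 or more. It was 1.90% (27 of 1421, 1.26 to 2.75%) at scores of 10.75 to 13.75. In each lower part it was at most 0.526%. Sox13lo peaks with a Sox13hi neighbour met 33.5% of the highest part and 2.54% of the lowest, so the gradient was not particular to Sox13lo-only peaks.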
